A study of Mus musculus with 6 samples.

Results

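Interleukins are small secreted proteins through which immune, stromal and epithelial cells signal to each other, and their receptors are mostly assembled from a ligand-binding chain and a signalling chain that several cytokines share. In liver, the IL-6 family acts on hepatocytes to drive the acute phase response, the IL-1 family starts and amplifies inflammation, IL-22 and IL-17 act on epithelial cells, and IL-4, IL-13, IL-25 and IL-33 are known for type 2 immunity and scarring. Several receptors are held in check by soluble or decoy proteins, such as the IL-1 receptor antagonist encoded by Il1rn. The genes described here are all rows of a mouse liver count table whose symbol begins with Il and a digit: 61 of the 16603 genes, of which 19 encode ligands or ligand subunits, 5 antagonists or decoy receptors, 35 receptor chains and 2 are IL-4-induced enzyme genes that carry the symbol only.

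RNA of liver was sequenced in 3 libraries labelled Mdr2-knockout and 3 labelled wild-type (WT). Mdr2, the product of Abcb4, moves phosphatidylcholine into bile, and mice without it develop chronic bile duct injury. The labels give tissue and genotype; the sources used here give no age, sex or strain, nor which stretch of the gene was removed. They also do not say whether each sample is a different mouse, and the p-values therefore speak only of how these samples vary, which can include technical variation. In the count table the columns carry the letters M and N, of which N was read as wild-type by elimination, and each direction below rests on that reading.

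Each library held 17100393 to 18124467 counts, of which 13965 to 14974 fell on the 61 genes in the labelled Mdr2-knockout libraries and 12281 to 14452 in the labelled wild-type libraries. Abcb4 stood higher with the Mdr2-knockout label, at 433 to 513 CPM (counts scaled to a common library size), than with the wild-type label, at 273 to 369 CPM. That goes against the label, although a deletion of a stretch that is not counted separately need not lower the count of a gene, and groups are therefore named by their labels throughout. Hepatocyte markers such as Alb were abundant in all libraries. Labelled wild-type replicate 3 stood apart from its group in acute phase genes: Saa1, which encodes serum amyloid A, lay at 339, 935 and 209 CPM in labelled Mdr2-knockout replicates 1, 2 and 3 in labelled Mdr2-knockout libraries, against 87.9, 493 and 2626 CPM in labelled wild-type replicates 1, 2 and 3. Where leaving out that library changes the call of an interleukin gene, the value without it is given. Values per library below always run over replicates 1, 2 and 3.

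The sequences before the genes that the results turn on are shown first, because several of these genes are known to answer shared inflammatory signals. They are RefSeq windows of build GRCm38.p6, each the 250 bases before an annotated start, in the direction of transcription. Capitals mark a match to the AP-1 motif TGANTCA, which reads the same on both strands, and none of the STAT, NF-kB and C/EBP motifs named below lies in these 5 windows. The Il1rn window is chr2:24336610-24336859 on the plus strand, that of Il17rb chr14:30008897-30009146 on the minus strand, that of Il1b chr2:129371140-129371389 on the minus strand, that of Il1rap chr16:26581455-26581704 on the plus strand and that of Il6ra chr3:89913197-89913446 on the minus strand. The first 3 genes were higher and the other two lower in the labelled Mdr2-knockout libraries.
Il1rn: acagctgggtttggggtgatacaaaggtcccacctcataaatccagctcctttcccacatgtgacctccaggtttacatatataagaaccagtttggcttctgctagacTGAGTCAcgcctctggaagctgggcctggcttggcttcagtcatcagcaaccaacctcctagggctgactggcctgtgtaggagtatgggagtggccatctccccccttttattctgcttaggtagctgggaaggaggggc
Il17rb: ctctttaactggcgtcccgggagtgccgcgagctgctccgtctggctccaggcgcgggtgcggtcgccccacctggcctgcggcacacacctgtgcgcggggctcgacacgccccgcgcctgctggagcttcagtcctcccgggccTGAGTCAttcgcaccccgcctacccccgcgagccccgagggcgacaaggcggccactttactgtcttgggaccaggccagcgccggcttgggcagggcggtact
Il1b: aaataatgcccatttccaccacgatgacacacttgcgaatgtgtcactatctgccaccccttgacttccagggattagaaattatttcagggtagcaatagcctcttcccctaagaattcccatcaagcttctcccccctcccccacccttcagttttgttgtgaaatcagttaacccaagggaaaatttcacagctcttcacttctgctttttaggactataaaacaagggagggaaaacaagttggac
Il1rap: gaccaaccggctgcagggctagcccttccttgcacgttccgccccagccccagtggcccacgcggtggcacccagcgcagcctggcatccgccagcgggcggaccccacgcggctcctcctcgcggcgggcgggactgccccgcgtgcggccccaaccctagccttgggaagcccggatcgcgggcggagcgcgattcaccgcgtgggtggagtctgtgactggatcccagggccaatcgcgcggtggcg
Il6ra: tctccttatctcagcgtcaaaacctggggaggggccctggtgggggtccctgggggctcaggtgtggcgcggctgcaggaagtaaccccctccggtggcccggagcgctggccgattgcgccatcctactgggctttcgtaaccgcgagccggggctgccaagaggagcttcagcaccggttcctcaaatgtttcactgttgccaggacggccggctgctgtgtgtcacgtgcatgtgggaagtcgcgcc
The AP-1 letters began 141 bases before the start in Il1rn and 104 bases before it in Il17rb. Of all 32851 windows in the table, 6.75% held them, and by gene 2113 of 27025 did. RefSeq windows were matched for 47 of the 61 interleukin genes, and 10 of the 47 held the AP-1 motif, among them 2 of the 8 with a window that were called higher and 1 of the 4 called lower. The NF-kB motif, spelled GGG, any 2 bases and TTTCC and searched on both strands, was held by 5 of the 47 genes and by 447 of all 27025. One of the 5 was Il1rn, in the third of its 3 windows, 51 bases before a start inside the gene. The STAT motif TTCNNNGAA was held by 6 of the 47 and 2197 of all genes, and the C/EBP motif TTGCNNAA by 11 and 2930. A match is a description of letters, and one gene's windows can overlap.

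Of the 61 interleukin genes, 11 rose and 6 fell in labelled Mdr2-knockout livers relative to labelled wild-type livers (edgeR adjusted p under 0.05 over all tested genes), 17 were tested and did not pass, and 27 had too few counts for the test. Of all 12612 tested genes, 20.9% were called higher and 16.3% lower. Among the 34 interleukin genes that passed the low-count filter those shares were 32.4% and 17.6%; a low gene can pass the filter only through the group in which it is high, so the first share supports nothing by itself, and the second lies near the background. The median log2 fold change of the 34 was 0.31, against 0.01 over all tested genes. The same limit of the filter holds for this median, which supports nothing by itself. The 6 genes called lower were all receptor chains, and the 11 called higher were 3 ligand genes, 1 antagonist gene and 7 receptor genes. The genes that passed the filter were 24 receptor, 7 ligand and 3 antagonist genes, and a difference between roles was not tested. Of the 34 tested, 10 were called higher by at least 2-fold, as were 1404 of all 12612 tested genes (11.1%). The limit of the filter holds for that count too. One of the 34, Il12rb1, was called lower by at least 2-fold, as were 95 of all tested genes (0.753%). Without labelled wild-type replicate 3 the counts were 11 higher and 6 lower, as with all libraries. With total-count scaling, which moved the median over all tested genes up by 0.29 on the log2 scale, 19 were higher and 3 lower. Of all tested genes, 47.1% were higher and 2.62% lower under that scaling.

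**Figure D1:**
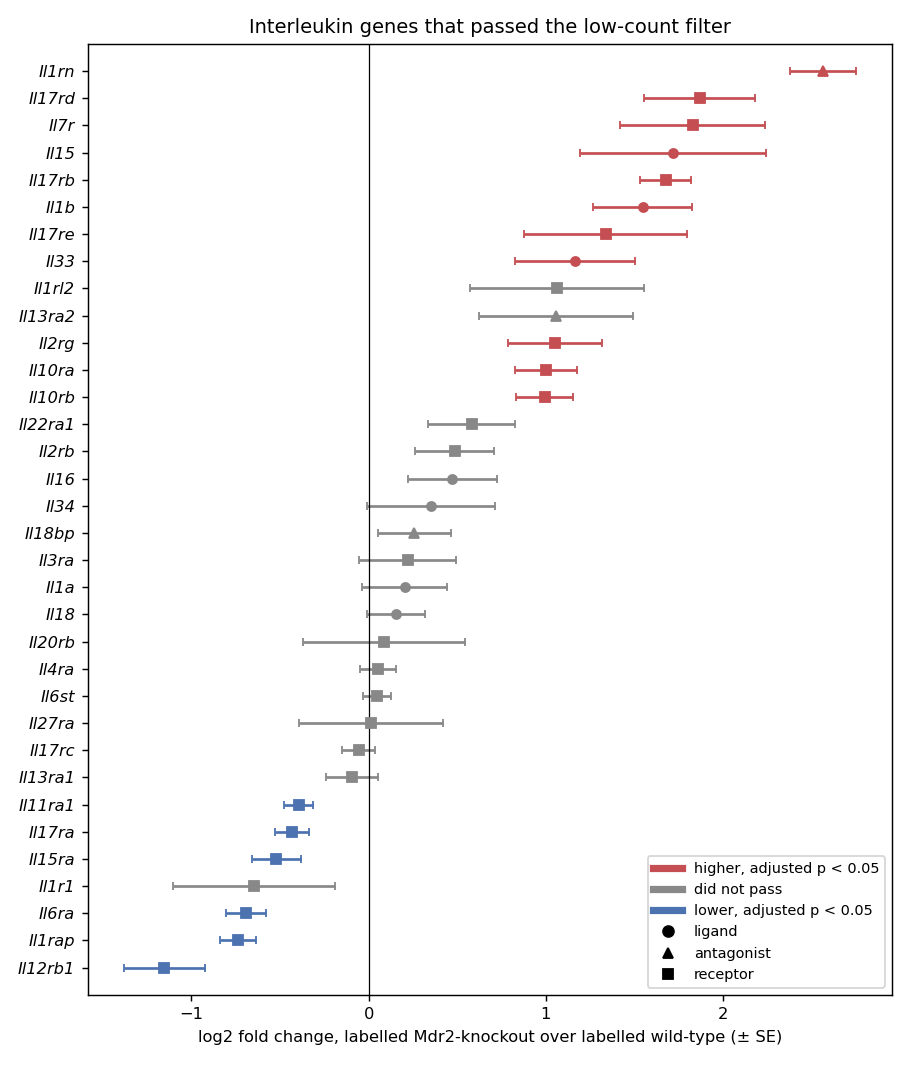
Log2 fold changes, labelled Mdr2-knockout over labelled wild-type, of the 34 interleukin genes that passed the low-count filter; bars are the SE, colours the edgeR call at an adjusted p of 0.05 and marker shapes the role. The antagonist gene Il1rn lies highest at 2.56 and the receptor gene Il12rb1 lowest at -1.15.

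Levels of different genes can be compared only per length, on the authors' FPKM scale, which is set by library totals and is not used here to call differences between the groups. The most abundant interleukin genes were receptor chains in both groups, although 16 of the 35 receptor genes in labelled Mdr2-knockout and 14 in labelled wild-type libraries had a group mean over 1 FPKM, and the rest lay at or below that level. The signalling chain gene Il6st had the highest level, 34.3 ± 1.13 FPKM in labelled Mdr2-knockout and 27.1 ± 1.88 FPKM in labelled wild-type libraries (SD, n = 3 each). Il6ra followed, at 16.2 ± 2.71 FPKM in labelled Mdr2-knockout and 21.4 ± 0.628 FPKM in labelled wild-type libraries. Il1r1 lay at 14.1 ± 4.61 FPKM in labelled Mdr2-knockout and 18.0 ± 7.39 FPKM in labelled wild-type libraries, within their spread. Of the 35 receptor genes, 13 had a group mean over 5 FPKM in the labelled Mdr2-knockout and 10 in the labelled wild-type libraries. The only ligand gene over 5 FPKM was Il18, at 6.59 ± 1.12 FPKM in labelled Mdr2-knockout and 4.83 ± 0.732 FPKM in labelled wild-type libraries. The 4 receptor genes Il6st, Il1rap, Il6ra and Il1r1 together took 54.5% to 59.4% of all interleukin gene counts in the labelled Mdr2-knockout libraries and 66.4% to 67.1% in the labelled wild-type libraries. That share is of raw counts and not per length, and Il6st and Il1rap have 11099 and 11360 exonic bases. It is therefore no ranking of levels.

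Among IL-1 family ligands, Il1b and Il33 were higher with the Mdr2-knockout label and Il1a and Il18 did not pass. Il1b, the inducible ligand made mainly by myeloid cells, had 108, 101 and 71 counts in labelled Mdr2-knockout libraries, against 31, 15 and 30 in labelled wild-type libraries. That is 4.71 ± 0.894 CPM in labelled Mdr2-knockout libraries against 1.61 ± 0.563 CPM in labelled wild-type libraries (SD, n = 3 each), or 1.55 higher on the log2 scale (SE 0.28, edgeR adjusted p = 0.00207), and the groups did not overlap. The annotation places 25 of the 1907 exonic bases of Il1b under an antisense transcript, Il1bos, and the strand setting of the counting is not given in the sources used here. Il33, a nuclear alarm cytokine of epithelial and stromal cells, had 47, 64 and 36 counts in labelled Mdr2-knockout libraries, against 18, 23 and 11 in labelled wild-type libraries. The log2 fold change of Il33 was 1.16 (SE 0.34, edgeR adjusted p = 0.0210), every labelled Mdr2-knockout library lay above every labelled wild-type library, and its call was lost when labelled wild-type replicate 3 was left out (edgeR adjusted p = 0.0585) or labelled Mdr2-knockout replicate 2 (edgeR adjusted p = 0.0866).

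Il1a, the ligand released from damaged cells, had 85, 66 and 79 counts in labelled Mdr2-knockout libraries, against 43, 72 and 44 in labelled wild-type libraries, and after scaling the groups overlapped (log2 fold change 0.20, SE 0.24, edgeR adjusted p = 0.532). Il18, which is cleaved by the inflammasome as Il1b is, lay at 11.6, 9.01 and 8.57 CPM in labelled Mdr2-knockout libraries, against 7.18, 9.07 and 9.97 CPM in labelled wild-type libraries (log2 fold change 0.15, SE 0.16, edgeR adjusted p = 0.492). The level of Il1a and Il18 thus overlapped between the groups where that of Il1b did not. In raw counts the ratio of Il1b to Il1a within a library was 1.27, 1.53 and 0.899 in the labelled Mdr2-knockout libraries, against 0.721, 0.208 and 0.682 in the labelled wild-type libraries (two-sided exact permutation p = 0.1, the smallest that 3 against 3 can give).

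The antagonist gene Il1rn had the highest log2 fold change of the tested interleukin genes. It had 252, 247 and 200 counts in labelled Mdr2-knockout libraries, against 29, 25 and 40 in labelled wild-type libraries. At 11.8 ± 1.20 CPM in labelled Mdr2-knockout libraries against 1.99 ± 0.480 CPM in labelled wild-type libraries (SD, n = 3 each), Il1rn was 5.90-fold higher (log2 fold change 2.56, SE 0.19, edgeR adjusted p = 9.99e-06), with no overlap. The gene lies at chr2:24336853-24351494 on the plus strand and has annotated starts for a secreted and for intracellular forms, which a count per gene cannot separate. Il1rn had 2.33, 2.45 and 2.82 counts per count of Il1b in labelled Mdr2-knockout libraries, against 0.935, 1.67 and 1.33 in labelled wild-type libraries. Per count of Il1a and Il1b together it had 1.31, 1.48 and 1.33 in labelled Mdr2-knockout libraries, against 0.392, 0.287 and 0.540 in labelled wild-type libraries. Neither ratio overlapped between the groups, and both had a two-sided exact permutation p of 0.1, the smallest possible here. These ratios are taken within a library and do not depend on the scaling between libraries. They are not per length, and Il1rn has 5535 exonic bases against 1907 of Il1b and 1974 of Il1a. A ratio above 1 therefore does not mean more transcripts. Mean FPKM were 4.64 for Il1rn, 3.84 for Il1b and 2.18 for Il1a in labelled Mdr2-knockout libraries. In labelled wild-type libraries they were 0.640, 1.07 and 1.54.

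Il1r2 encodes a decoy receptor that binds IL-1 without signalling. It was left out by the low-count filter, with 15, 16 and 7 counts in labelled Mdr2-knockout libraries, against 1, 1 and 1 in labelled wild-type libraries. The ratio of the scaled sums was 10.1, with an exact 95% counting interval of 3.20 to 51.1, and in an edgeR fit without the filter the adjusted p was 0.00447. Il18bp, which encodes a soluble protein that binds IL-18, lay at 16.6, 16.6 and 14.2 CPM in labelled Mdr2-knockout libraries, against 11.3, 10.2 and 18.2 CPM in labelled wild-type libraries. Labelled wild-type replicate 3 was the highest of all 6 libraries and the groups overlapped (log2 fold change 0.26, SE 0.21, edgeR adjusted p = 0.360). Without that library the log2 fold change of Il18bp was 0.55 with an edgeR adjusted p of 0.00896. The ratio of Il18bp to Il18 counts overlapped, at 1.44, 1.84 and 1.66 in labelled Mdr2-knockout libraries, against 1.57, 1.13 and 1.82 in labelled wild-type libraries.

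The signalling receptor chains of IL-1 did not follow the ligands. Il1rap, the accessory chain shared by the receptors for IL-1, IL-33 and IL-36, lay at 118, 98.0 and 115 CPM in labelled Mdr2-knockout libraries, against 208, 170 and 174 CPM in labelled wild-type libraries. It was lower, with a log2 fold change of -0.74 (standard error 0.10; edgeR adjusted p = 0.000457), and the groups did not overlap. An antisense gene, Gm20319, lies opposite 552 of the 11360 exonic bases of Il1rap. Il1r1, the chain that binds IL-1, lay at 48.4, 92.0 and 94.0 CPM in labelled Mdr2-knockout libraries, against 69.4, 126 and 171 CPM in labelled wild-type libraries, and the groups overlapped (log2 fold change -0.65, SE 0.46, edgeR adjusted p = 0.336). The highest library for Il1r1 was again labelled wild-type replicate 3, without which the log2 fold change was -0.33 (edgeR adjusted p = 0.638). The number of Il1r1 counts per Il1rap count overlapped, at 0.410, 0.938 and 0.818 in labelled Mdr2-knockout and 0.334, 0.740 and 0.987 in labelled wild-type libraries. Sigirr, a gene outside the symbol rule that encodes an inhibitory member of the same receptor family, was lower too (log2 fold change -0.50, SE 0.09, edgeR adjusted p = 0.00188).

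Il1r2, Il1r1, Il1rl2, Il1rl1, Il18r1 and Il18rap lie side by side on the plus strand of chromosome 1, between 40074079 and 40551705 (GRCm38). Their values differed within that stretch. Il1rl1, which encodes the IL-33 receptor ST2, had 4, 4 and 8 counts in labelled Mdr2-knockout libraries, against 1, 0 and 0 in labelled wild-type libraries, a ratio of 12.7 (exact counting interval 1.98 to 535; edgeR adjusted p = 0.0436 in the fit without the filter). Il1rl2, the receptor gene for IL-36, lay at 0.843, 2.06 and 1.09 CPM in labelled Mdr2-knockout libraries, against 0.953, 0.255 and 0.694 CPM in labelled wild-type libraries, and did not pass (log2 fold change 1.06, edgeR adjusted p = 0.114). Il18r1, the IL-18-binding chain, had 3, 5 and 19 counts in labelled Mdr2-knockout libraries, against 3, 0 and 0 in labelled wild-type libraries, and most of its counts were in 1 library. Il18rap, its accessory chain, had 7, 25 and 14 counts in labelled Mdr2-knockout libraries, against 7, 3 and 6 in labelled wild-type libraries. For both the groups overlapped, and neither passed in the fit without the filter (edgeR adjusted p = 0.0773 for Il18r1 and 0.143 for Il18rap). The IL-36 gamma gene, Il1f9, had 10, 9 and 4 counts in labelled Mdr2-knockout libraries, against 1, 0 and 1 in labelled wild-type libraries, with no overlap (ratio 9.16, counting interval 2.26 to 80.2; edgeR adjusted p = 0.0265 in the fit without the filter).

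**Figure D2:**
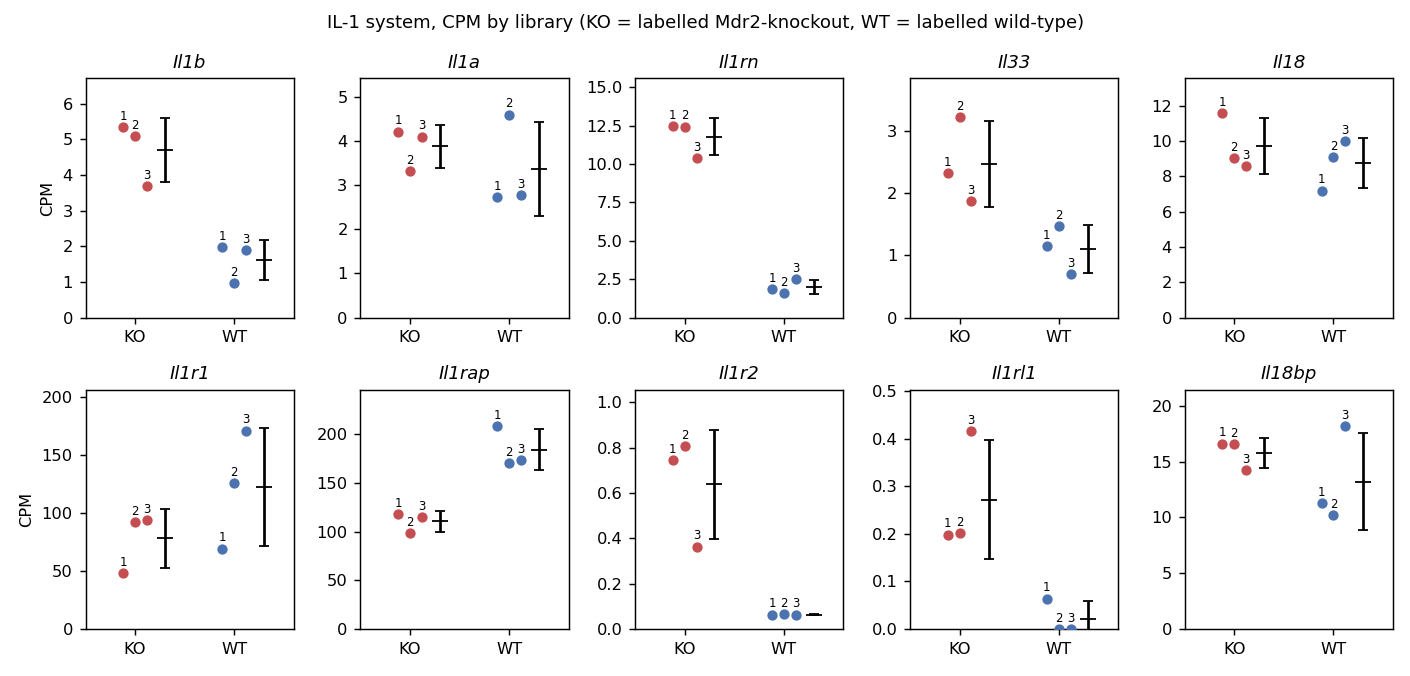
Levels in CPM of 10 IL-1 system genes in each library, labelled Mdr2-knockout (KO) left of labelled wild-type (WT); numbers are the replicates and black marks the mean and SD over 3 libraries. Il1b, Il1rn, Il33, Il1r2 and Il1rl1 lie higher and Il1rap lower in every labelled Mdr2-knockout library, and Il1r1 and Il18bp are highest in labelled wild-type replicate 3.

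IL-17 receptor chains parted in opposite directions. Il17rb, which pairs with Il17ra to form the receptor for IL-25, had 374, 396 and 287 counts in labelled Mdr2-knockout libraries, against 77, 90 and 96 in labelled wild-type libraries. At 17.8 ± 2.59 CPM in labelled Mdr2-knockout libraries against 5.57 ± 0.602 CPM in labelled wild-type libraries (SD, n = 3 each), Il17rb was 3.20-fold higher (1.68 on the log2 scale, SE 0.14, edgeR adjusted p = 2.88e-05) and the groups lay far apart. Of the 3707 exonic bases of Il17rb, 141 lie opposite the gene Actr8, which was itself lower (log2 fold change -0.27). Il17ra, the chain shared by most IL-17 receptors, lay at 24.1, 23.9 and 21.3 CPM in labelled Mdr2-knockout libraries, against 27.4, 33.3 and 32.7 CPM in labelled wild-type libraries, and was lower (log2 fold change -0.43, SE 0.10, edgeR adjusted p = 0.00604). The call of Il17ra was lost with total-count scaling (log2 fold change -0.14, edgeR adjusted p = 0.238). Il17rb had 0.770, 0.835 and 0.700 counts per count of Il17ra in labelled Mdr2-knockout libraries, against 0.179, 0.172 and 0.185 in labelled wild-type libraries, a 4.29-fold difference in a measure free of scaling (two-sided exact permutation p = 0.1, the smallest possible). The fold takes in the fall of Il17ra. Because the genes parted in opposite directions without overlap, their ratio had to separate the groups, and that p adds no support.

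Il17rc, which completes the receptor for IL-17A and IL-17F, overlapped between the groups, at 22.4, 24.9 and 23.0 CPM in labelled Mdr2-knockout libraries, against 22.1, 24.2 and 26.8 CPM in labelled wild-type libraries (log2 fold change -0.06, SE 0.09, edgeR adjusted p = 0.666). Il17rd, known also as an inhibitor of FGF receptor signalling, had 33, 43 and 44 counts in labelled Mdr2-knockout libraries, against 10, 8 and 8 in labelled wild-type libraries. It was higher by a log2 fold change of 1.87 (standard error 0.31; edgeR adjusted p = 0.00142), with no overlap. Il17re, the receptor chain for IL-17C, had 15, 15 and 15 counts in labelled Mdr2-knockout libraries, against 6, 6 and 2 in labelled wild-type libraries (log2 fold change 1.34, SE 0.46, edgeR adjusted p = 0.0424). The call of Il17re was lost in 9 of its 13 alternative fits, where the edgeR or DESeq2 adjusted p reached 0.145 without labelled wild-type replicate 3. The ligand genes Il17c and Il17d, which are under the naming threshold of 10 counts and are given for their place beside these receptors, had 3 and 5 counts over the labelled Mdr2-knockout group and 0 over the labelled wild-type group.

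Both chains of the IL-10 receptor were higher. Il10ra, found mainly on blood cells, had 143, 156 and 153 counts in labelled Mdr2-knockout libraries, against 54, 52 and 74 in labelled wild-type libraries (log2 fold change 1.00, SE 0.17, edgeR adjusted p = 0.00161). Il10rb, which also serves the receptors for IL-22 and the lambda interferons, had 240, 229 and 262 counts in labelled Mdr2-knockout libraries, against 80, 92 and 121 in labelled wild-type libraries (log2 fold change 0.99, SE 0.16, edgeR adjusted p = 0.00109). Neither gene overlapped between the groups. The annotation has a further gene, Gm21970, on the same strand over 569 of the 3808 exonic bases of Il10rb. Il22ra1, the epithelial chain of the IL-22 receptor, lay at 30.4, 55.0 and 40.1 CPM in labelled Mdr2-knockout libraries, against 24.4, 33.2 and 26.2 CPM in labelled wild-type libraries, overlapped and did not pass (log2 fold change 0.58, SE 0.25, edgeR adjusted p = 0.118). Without labelled Mdr2-knockout replicate 1 it passed, with an edgeR adjusted p of 0.0220, as it did with DESeq2 (adjusted p = 0.0222). Il20rb, a chain of the IL-20 family receptors, had 15, 17 and 12 counts in labelled Mdr2-knockout libraries, against 19, 6 and 8 in labelled wild-type libraries and did not pass (edgeR adjusted p = 0.903).

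The IL-6 family showed its receptor chain lower and its signalling chain within the spread. Il6ra, which binds IL-6 on hepatocytes and some leukocytes, lay at 40.8, 50.3 and 57.4 CPM in labelled Mdr2-knockout libraries, against 76.1, 81.7 and 82.4 CPM in labelled wild-type libraries. It was lower, with a log2 fold change of -0.69 (standard error 0.11; edgeR adjusted p = 0.00152), and the groups did not overlap. Of the 8642 exonic bases of Il6ra, 242 lie opposite the antisense gene Gm42809. Il6st, which encodes the gp130 chain shared by the family, lay at 170, 179 and 182 CPM in labelled Mdr2-knockout libraries, against 165, 164 and 185 CPM in labelled wild-type libraries (log2 fold change 0.05, SE 0.08, edgeR adjusted p = 0.659). With total-count scaling Il6st passed as higher (log2 fold change 0.34, edgeR adjusted p = 0.00523). Within a library, Il6st had 4.16, 3.56 and 3.17 counts per count of Il6ra in labelled Mdr2-knockout libraries, against 2.17, 2.01 and 2.25 in labelled wild-type libraries, without overlap (two-sided exact permutation p = 0.1, the smallest possible).

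Il11ra1, the IL-11-binding chain, lay at 21.2, 19.8 and 20.5 CPM in labelled Mdr2-knockout libraries, against 26.8, 25.9 and 28.3 CPM in labelled wild-type libraries, and was lower (log2 fold change -0.40, SE 0.08, edgeR adjusted p = 0.00362). Its call was lost with total-count scaling (log2 fold change -0.10, edgeR adjusted p = 0.329). Its close copy Il11ra2 had 6 and 7 counts over the labelled Mdr2-knockout and labelled wild-type groups, and reads of this pair may be split by the counting. Il27ra, the receptor chain for IL-27, overlapped, at 19, 26 and 27 counts in labelled Mdr2-knockout libraries, against 8, 23 and 26 in labelled wild-type libraries (edgeR adjusted p = 0.985). Ligands of the family were nearly absent from the counts. Il11 had 6 counts over the labelled Mdr2-knockout group and 6 over the labelled wild-type group. Il6, named here for its place in the family although it is under 10 counts, had 1 count in the labelled Mdr2-knockout group and 0 in the labelled wild-type group, so no change of Il6 was detectable at this depth, where 3 counts equal 0.149 to 0.156 CPM in a labelled Mdr2-knockout library and 0.189 to 0.192 CPM in a labelled wild-type library.

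**Figure D3:**
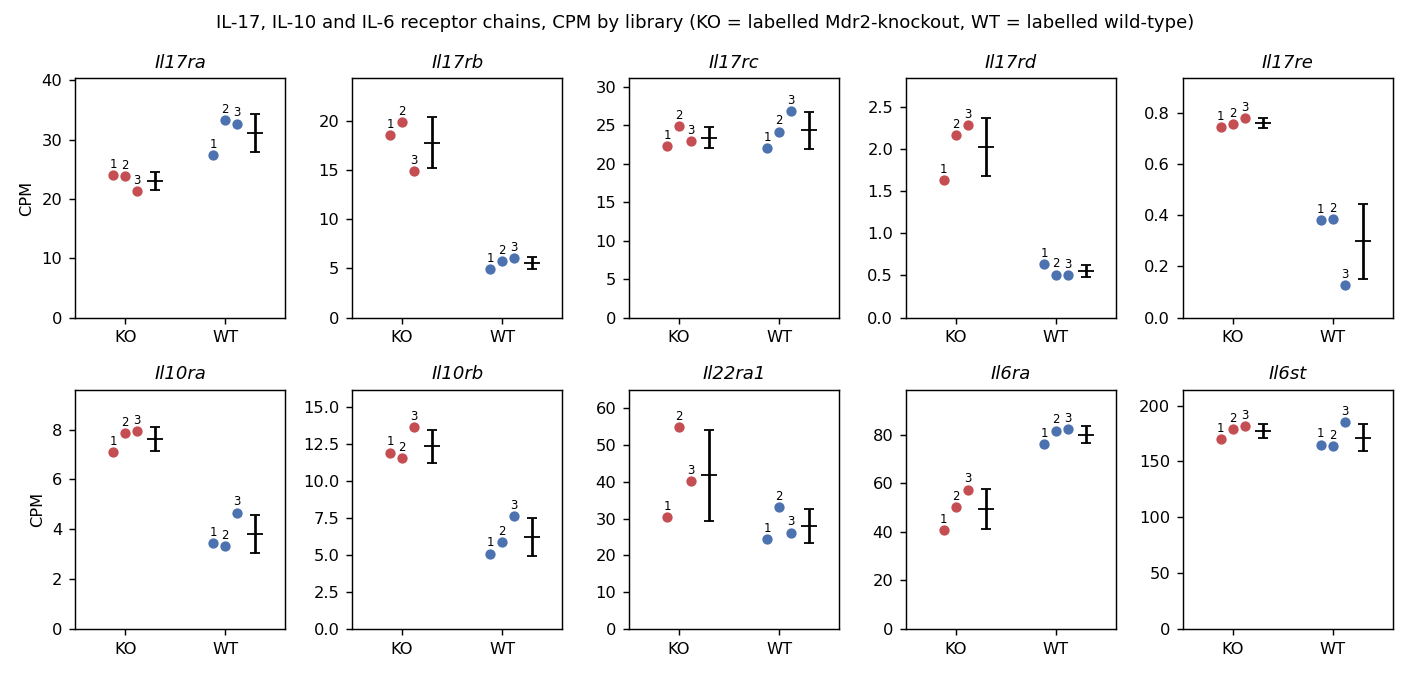
Levels in CPM of 10 receptor chain genes in each library, labelled Mdr2-knockout (KO) left of labelled wild-type (WT); numbers are the replicates and black marks the mean and SD over 3 libraries. Il17rb, Il17rd, Il17re, Il10ra and Il10rb lie higher and Il17ra and Il6ra lower in every labelled Mdr2-knockout library, while Il17rc, Il22ra1 and Il6st overlap.

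**Figure D4:**
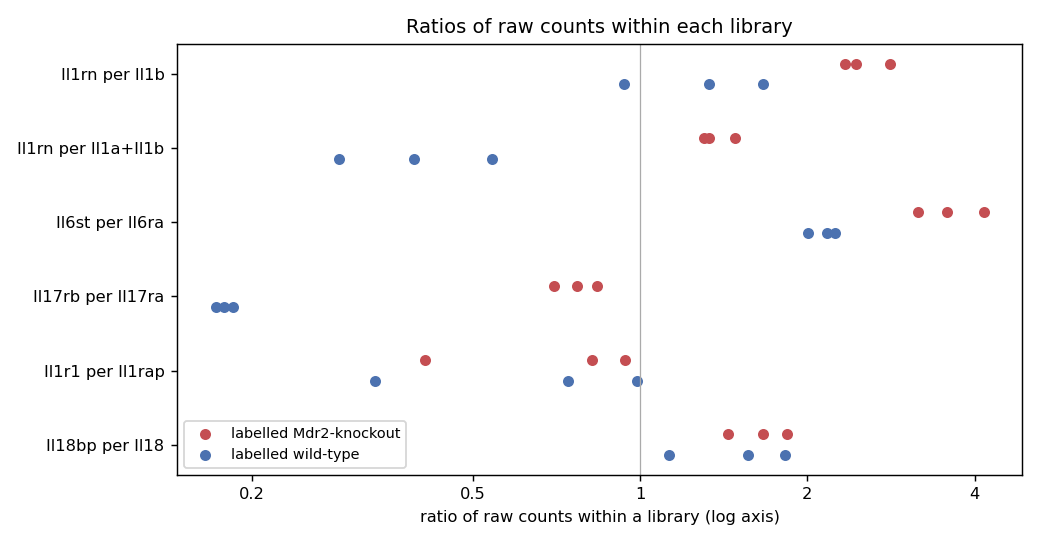
Ratios of raw counts of 2 interleukin genes (or of 1 gene to the sum of 2) within each library, on a log axis; each point is 1 library. The labelled Mdr2-knockout libraries lie apart from the labelled wild-type libraries for Il1rn per Il1b, Il1rn per the sum of Il1a and Il1b, Il6st per Il6ra and Il17rb per Il17ra, and overlap them for Il1r1 per Il1rap and Il18bp per Il18. Counts are not divided by gene length, so a ratio above 1 does not mean more transcripts.

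Receptor genes of lymphoid cells were low. Il2rg, the common gamma chain of the receptors for IL-2, IL-4, IL-7, IL-9, IL-15 and IL-21, had 96, 97 and 80 counts in labelled Mdr2-knockout libraries, against 28, 25 and 52 in labelled wild-type libraries (log2 fold change 1.05, SE 0.27, edgeR adjusted p = 0.0114), without overlap. Another annotated gene on the same strand, Gm20489, covers 728 of the 2387 exonic bases of Il2rg. The IL-7 receptor gene Il7r had 21, 32 and 37 counts in labelled Mdr2-knockout libraries, against 4, 9 and 7 in labelled wild-type libraries (log2 fold change 1.83, SE 0.41, edgeR adjusted p = 0.00632). Il2rb, shared by IL-2 and IL-15, had 60, 59 and 55 counts in labelled Mdr2-knockout libraries, against 27, 33 and 39 in labelled wild-type libraries; the groups did not overlap, yet the test did not pass (log2 fold change 0.48, SE 0.22, edgeR adjusted p = 0.109). Il21r had 16, 5 and 12 counts in labelled Mdr2-knockout libraries, against 3, 1 and 5 in labelled wild-type libraries, and Il2ra, the IL-2 receptor alpha chain of activated and regulatory T cells, had 6 counts over the labelled Mdr2-knockout and 5 over the labelled wild-type group. The ligand gene Il7 had 8, 9 and 3 counts in labelled Mdr2-knockout libraries, against 0, 3 and 0 in labelled wild-type libraries, and the groups overlapped after scaling.

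IL-15 and its receptor moved apart. Il15, a survival factor of NK and memory T cells, had 24, 17 and 30 counts in labelled Mdr2-knockout libraries, against 8, 1 and 8 in labelled wild-type libraries. It was higher without overlap (log2 fold change 1.72, SE 0.52, edgeR adjusted p = 0.0264), but the call rested on few counts: the edgeR adjusted p was 0.0727 without labelled wild-type replicate 2, 0.0636 without labelled Mdr2-knockout replicate 1 and 0.0808 without labelled Mdr2-knockout replicate 3. Il15ra, which holds IL-15 on the presenting cell, lay at 24.5, 17.9 and 26.5 CPM in labelled Mdr2-knockout libraries, against 35.8, 30.5 and 32.6 CPM in labelled wild-type libraries. Il15ra was lower (log2 fold change -0.52, SE 0.14, edgeR adjusted p = 0.0175), a call lost with total-count scaling (edgeR adjusted p = 0.220) and on leaving out labelled wild-type replicate 1 (edgeR adjusted p = 0.0522).

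In the IL-12 group, Il12rb1, the chain shared by the receptors for IL-12 and IL-23, had 27, 40 and 31 counts in labelled Mdr2-knockout libraries, against 61, 58 and 55 in labelled wild-type libraries. At 1.65 ± 0.339 CPM in labelled Mdr2-knockout libraries against 3.68 ± 0.204 CPM in labelled wild-type libraries (SD, n = 3 each), it had the lowest log2 fold change of the tested interleukin genes, -1.15 (SE 0.23, edgeR adjusted p = 0.00327). The partner Il12rb2 had 17 and 7 counts over the labelled Mdr2-knockout and labelled wild-type groups, and 1519 of its 3794 exonic bases lie opposite Serbp1, at 112 to 127 CPM in the 6 libraries, so its counts are uncertain. Il23a, a subunit of IL-23, had 4, 7 and 10 counts in labelled Mdr2-knockout libraries, against 1, 4 and 1 in labelled wild-type libraries, and the groups overlapped after scaling.

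The genes Il4ra, Il13ra1, Il13ra2 and Il3ra did not pass. Il4ra, the chain common to IL-4 and IL-13, lay at 44.0, 40.3 and 33.2 CPM in labelled Mdr2-knockout libraries, against 39.5, 37.8 and 36.0 CPM in labelled wild-type libraries (edgeR adjusted p = 0.703). Its partner Il13ra1 lay at 29.1, 30.6 and 28.7 CPM in labelled Mdr2-knockout libraries, against 27.8, 26.4 and 40.1 CPM in labelled wild-type libraries, with labelled wild-type replicate 3 the highest (log2 fold change -0.09, SE 0.15, edgeR adjusted p = 0.656). Without that library the log2 fold change of Il13ra1 was 0.11, and it did not pass either. The decoy receptor gene Il13ra2 had 17, 11 and 22 counts in labelled Mdr2-knockout libraries, against 6, 5 and 8 in labelled wild-type libraries. The groups did not overlap, yet Il13ra2 did not pass (log2 fold change 1.06, SE 0.44, edgeR adjusted p = 0.0795). Il3ra, the IL-3-binding chain, had 45, 28 and 41 counts in labelled Mdr2-knockout libraries, against 23, 28 and 27 in labelled wild-type libraries (edgeR adjusted p = 0.563).

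The remaining ligands that could be tested belong to none of these families. Il16, which encodes a chemoattractant of CD4+ cells, lay at 3.07, 5.18 and 5.14 CPM in labelled Mdr2-knockout libraries, against 2.48, 3.51 and 3.66 CPM in labelled wild-type libraries (log2 fold change 0.47, SE 0.25, edgeR adjusted p = 0.165). It passed without labelled Mdr2-knockout replicate 1 (edgeR adjusted p = 0.0495), and 1202 of its 7865 exonic bases lie opposite Stard5. Il34, a ligand of the macrophage growth factor receptor Csf1r, had 50, 22 and 45 counts in labelled Mdr2-knockout libraries, against 17, 31 and 25 in labelled wild-type libraries (edgeR adjusted p = 0.471).

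Of the 27 interleukin genes left out by the low-count filter, 12 had at least 10 counts in all and 15 had 1 to 7. In the edgeR fit without the filter, Il1r2, Il1f9 and Il1rl1 passed and none of the others of the 27 did. Of all 16277 genes in that fit, 17.3% were higher and 13.3% lower. The share among left-out genes alone was not taken, so the number that passed supports nothing by itself. Of the 61 genes, 12 had no count in the labelled wild-type group and 0 had none in the labelled Mdr2-knockout group, whose scaled libraries were larger. After scaling, 21 of the 27 had the higher sum in the labelled Mdr2-knockout group and 6 in the labelled wild-type group. Neither of these counts was set against all genes. Left-out genes leaned the same way over the whole table, so these counts support nothing about interleukin genes by themselves. Among the 12, the groups did not overlap for 3, Il1r2, Il1f9 and Il1rl1, each with the labelled Mdr2-knockout libraries above. Of all 1731 genes left out with at least 10 counts, 34.1% did so, and 2.54% had the labelled Mdr2-knockout libraries below without overlap. Il12b, one of the 15, had 4, 2 and 1 counts in labelled Mdr2-knockout libraries, against 0, 0 and 0 in labelled wild-type libraries and was at least 1.86-fold higher when 3 counts for the whole labelled wild-type group are taken as the floor, but did not pass in the edgeR fit without the filter (adjusted p = 0.105). Il10, Il5 and Il4i1, likewise named although under 10 counts, had 3, 2 and 2 counts over the labelled Mdr2-knockout group and 0 over the labelled wild-type group, and no difference was detectable at this depth.

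**Figure D5:**
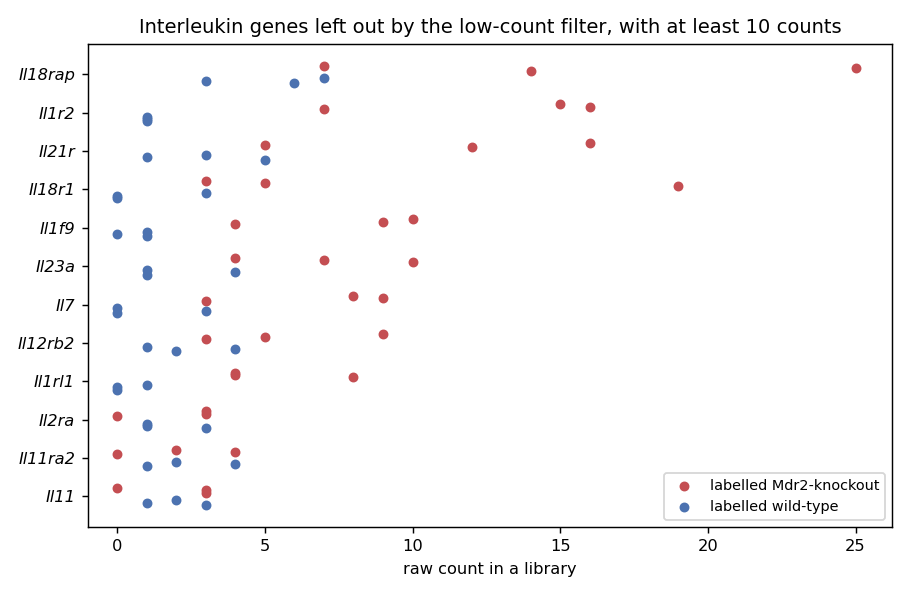
Raw counts in each library of the 12 interleukin genes with at least 10 counts that the low-count filter left out, labelled Mdr2-knockout above labelled wild-type within each row; points of a group are set slightly apart in height. For Il1r2, Il1f9 and Il1rl1 the labelled Mdr2-knockout counts all exceed the labelled wild-type counts.

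Genes that share receptors with interleukins, though their symbols do not follow the rule, counted 6 higher and 2 lower among 12 tested, out of 17 listed (median log2 fold change 0.91, against 0.01 over all tested genes). For this list and those that follow, the background is 20.9% of all tested genes called higher and 16.3% lower. The limit of the low-count filter holds for these lists too. With a mean of at least 50 counts, 5 of 9 genes of this list were higher and 2 lower (median 1.17). That mean runs over both groups, so a gene can still pass through the group in which it is high. Of all genes tested with that mean, 18.8% were higher and 14.1% lower. Clcf1, a gp130 ligand, was highest by log2 fold change, 3.13 (SE 0.26, edgeR adjusted p = 2.4e-05), at 5.61 ± 0.442 CPM in labelled Mdr2-knockout libraries against 0.634 ± 0.225 CPM in labelled wild-type libraries (SD, n = 3 each). The gp130 partners went in opposite directions: Osmr, the oncostatin M receptor, was higher (1.22 on the log2 scale, SE 0.15, edgeR adjusted p = 0.000263) and Lifr, the LIF receptor, was lower (log2 fold change -0.91, SE 0.11, edgeR adjusted p = 0.000192). Csf2rb and Csf2rb2, which encode beta chains of receptors for IL-3, were higher by log2 fold changes of 1.37 and 1.62, with edgeR adjusted p-values of 0.00102 and 0.00147. Their sequences are close, and reads may be split between them. Csf2ra and Ifnlr1, the lambda interferon chain that pairs with Il10rb, were higher by 1.12 and 2.95 on the log2 scale. Crlf2, which pairs with Il7r in the receptor for TSLP, did not pass (log2 fold change -0.28, edgeR adjusted p = 0.236).

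Downstream genes were mostly within the spread. Of 24 tested JAK, STAT and SOCS genes, out of 25 listed, 2 were higher, 3 lower and 19 did not pass (median log2 fold change -0.06). Stat4, a transducer of IL-12 signals, and Stat5a were higher by log2 fold changes of 1.30 and 0.39, and Stat3, Pias4 and Socs7 were lower, with log2 fold changes of -0.36, -0.38 and -0.44. Without labelled wild-type replicate 3 the calls of Stat4, Stat5a and Stat3 were lost, and Ptpn6 was higher and Stat5b lower. With total-count scaling 10 of the 24 were higher and 0 lower, where 47.1% of all tested genes were higher and 2.62% lower. Of 18 tested inflammasome, MyD88 and IL-17 adaptor genes, out of 19, 4 were higher, 1 lower and 13 did not pass (median 0.14). The 4 were the sensor genes Aim2 (2.21) and Nlrp3 (0.90), and the inhibitory kinase gene Irak3 (1.12), as log2 fold changes, and the inflammatory caspase gene Casp4, 2.82-fold higher. The lower was Map3k7 (log2 fold change -0.27). Nlrp3 lost its call without labelled wild-type replicate 3, and Pycard gained one. With total-count scaling 11 of these 18 genes were higher and 0 lower, against the same 47.1% and 2.62% of all tested genes.

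Genes known to answer interleukins gave 2 different counts. Of 16 acute phase genes known as IL-6 targets, 0 were higher, 6 lower and 10 did not pass (median log2 fold change -0.47). Without labelled wild-type replicate 3, the library that stood apart in these genes, the median was -0.09, with 0 higher, 7 lower (Hamp in addition) and 9 not passing. The 6 were Crp (-0.61), the fibrinogen genes Fga (-0.65), Fgb (-0.58) and Fgg (-0.60), Saa4 (-1.29) and Lbp (-0.43). Hepatocyte markers moved the same way: 6 of 8 were lower and 0 higher, their summed level at 73241 to 74240 CPM in labelled Mdr2-knockout and 117088 to 125994 CPM in labelled wild-type libraries, and their part in these changes was not tested. Of 8 tested genes known as IL-4 or IL-13 targets, out of 12 listed, 4 were higher, 0 lower and 4 did not pass (median 0.82). Low genes of this list can pass the filter only through the group in which they are high. With a mean of at least 50 counts, 1 of 3 was higher (median 0.13). Without the filter, 5 of 12 were higher and 0 lower (median 0.80). Of all tested genes, 18.8% were higher with that mean and 17.3% without the filter. Ccl17, Ccl22 and Clec10a, genes of dendritic cells and macrophages, had log2 fold changes of 3.24, 2.54 and 1.94, and Postn, a matrix protein gene, of 0.64. In the same list Arg1 (-0.13) and Mrc1 (0.09), singled out after their values were seen, did not pass.

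Liver tissue mixes cell types, and fewer cells of a type cannot be told apart from less RNA per cell. Markers of monocytes and macrophages were higher for 8 of 9 tested genes, with a summed level of 381 to 386 CPM in labelled Mdr2-knockout and 115 to 202 CPM in labelled wild-type libraries, and dendritic cell markers for 4 of 6, at 21.8 to 26.1 CPM in labelled Mdr2-knockout and 10.2 to 11.5 CPM in labelled wild-type libraries. Neutrophil markers were higher for 3 of 4, at 12.7 to 15.6 CPM in labelled Mdr2-knockout and 3.75 to 9.08 CPM in labelled wild-type libraries, although Ly6g had no count in any library. Cholangiocyte markers were higher for 8 of 8, at 81.4 to 87.1 CPM in labelled Mdr2-knockout and 28.7 to 33.7 CPM in labelled wild-type libraries, and stellate cell and fibroblast markers for 6 of 8, at 528 to 644 CPM in labelled Mdr2-knockout and 231 to 353 CPM in labelled wild-type libraries. None of 2 tested T cell markers out of 10 passed, at 4.58 to 5.997 CPM in labelled Mdr2-knockout and 2.73 to 4.35 CPM in labelled wild-type libraries. Of 2 tested B-lineage and plasma cell markers 1 was higher, at 4.18 to 6.28 CPM in labelled Mdr2-knockout and 2.99 to 3.22 CPM in labelled wild-type libraries, Kupffer cell markers for 1 of 6, at 248 to 349 CPM in labelled Mdr2-knockout and 179 to 322 CPM in labelled wild-type libraries, and endothelial markers for 2 of 7 with 2 others lower, at 235 to 245 CPM in labelled Mdr2-knockout and 221 to 259 CPM in labelled wild-type libraries. Mast cell and basophil markers were at or near 0, with Tpsb2, Ms4a2 and Mcpt8 at 0 in all libraries. Most tested monocyte and macrophage, dendritic cell, neutrophil, cholangiocyte, and stellate cell and fibroblast markers were thus higher in the same libraries as the 11 interleukin genes called higher, and their part in those changes was not tested. The background was 20.9% of all tested genes called higher, and the limit of the low-count filter holds for these shares too. The full lists held 10 monocyte and macrophage, 8 dendritic cell and 8 neutrophil genes. In the stellate cell and fibroblast list Lrat and Reln did not pass (edgeR adjusted p = 0.299 and 0.116).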

How the data were processed

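The deposited values are 2 tables of the whole series. The authors deposited whole-number read counts for each gene, not normalized, and FPKM values of the same genes, proportional to the counts within a library and gene; FPKM served only to compare levels between genes. Per the submitters' processing notes the tools include SAMtools, StringTie, Bowtie2, DESeq, HTSeq, HISAT2, Cufflinks and Trimmomatic, and the build is mm10; the step each served, the annotation and the use of strand: not given in the sources used here. There were 0 columns that no sample could be given. The test was edgeR 4.0.16 in R 4.3.3 on the counts: filterByExpr (minimum count 10, total 15), TMM factors, robust quasi-likelihood fit with group as the only term on all 12612 tested genes, Benjamini-Hochberg adjustment and a threshold of 0.05. The pipeline was tested on simulated data. CPM are counts per TMM-scaled library. Fold changes are labelled Mdr2-knockout over labelled wild-type, and the SE comes from the fold change and its F statistic. Ratios of low counts carry exact binomial 95% intervals, which cover counting error only, as does the floor of 3 counts over the group. No library repeated another of its group: chi-square per degree of freedom was at least 16.3.

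Alternatives were DESeq2 1.42.0, limma 3.58.1 with voom, scaling by RLE, by the upper quartile or by total counts, no filter, a mean of at least 50 counts, the replicate number as a block, and leaving out each library. Every tested member and every other with at least 10 counts is named; in the other lists, up to 6 called genes with the smallest p and the direct receptor partners. The members and lists were chosen with earlier results of these data known. Positions and overlaps are from GENCODE M21 (GRCm38), promoter windows from RefSeq. The NK and innate lymphoid marker list is not reported here.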

Additional observations from a re-analysis of the deposited data

How the results depend on the processing

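The 11 interleukin genes called higher and 6 called lower kept their direction in every alternative run. Of these 17, 11 also kept their call in each of the alternatives in which they were tested, and 6 lost it in at least 1: Il11ra1, Il15, Il15ra, Il17ra, Il17re and Il33. With total-count scaling 19 interleukin genes were higher and 3 lower, and of the related genes in the 5 other lists 35 were higher and 6 lower, against 16 and 12; 86.4% of interleukin calls were then higher, against 64.7%, and 94.7% of all calls, against 56.2%. Of all tested genes, 47.1% were higher and 2.62% lower under that scaling. The cause of these shifts was not tested. With a mean of at least 50 counts, which tests fewer genes, 6 interleukin and 9 related genes were higher, as were 18.8% of all genes tested. Leaving out 1 library gave 10 to 11 interleukin genes higher and 5 to 6 lower, 12 to 15 related genes higher and 9 to 13 lower, and 3541 to 4609 calls over all genes, against 4685.

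Of the genes that did not pass, 5 changed sign in the log2 fold change; the cause was not tested. Il13ra1 gave 0.20 and Il17rc 0.24 with total-count scaling. Il27ra gave -0.0065 with DESeq2 and -0.0016 without the filter. Over the fits that leave out 1 library the log2 fold change ran from -0.21 to 0.11 for Il13ra1, -0.13 to 0.0068 for Il17rc, -0.21 to 0.72 for Il20rb, -0.36 to 0.29 for Il27ra and -0.040 to 0.16 for Il4ra.

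The replicate numbers are shared between groups, but same-numbered libraries did not deviate together (correlations of 0.08, 0.04 and -0.08), and not every library correlated best with its own number. With the replicate block 11 interleukin genes were higher and 7 lower. Il1r1 (log2 fold change -0.61, edgeR adjusted p = 0.00136) and Il22ra1 (edgeR adjusted p = 0.00241) then passed and Il17re (edgeR adjusted p = 0.0721) did not. Low counts left 12 of 19 ligand genes and 11 of 35 receptor genes out of the test.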
